A study of Mus musculus with 16 samples.

Results

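Hif1a and 9 enzymes of glycolysis were followed in 2 myeloid populations, macrophages and microglia, of mice with α-synuclein injected into the brain. The 10 genes were chosen by name, as Hif1a, Hk2, Hk3, Pfkl, Aldoa, Gapdh, Pgk1, Eno1, Pkm and Ldha. They were taken from 18576 genes that had a mouse symbol in at least 1 of the 16 expression tables. Levels are given as FPKM, which divides the fragments of a transcript by its length and by all mapped fragments of the library, summed over the transcripts of a gene, with a gene that a table does not list set at 0.

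The mice were CD163KO (CD163tm1.1(KOMP)Vlcg) or WT littermates on C57BL/6N, of either sex and aged 12 weeks at surgery, so every cell of a CD163KO mouse lacked the scavenger receptor CD163. Each received murine α-syn into both striata, as monomer (MONO) or as pre-formed fibrils (PFF), and cells were sorted 2 months later, so no group is free of injection. Microglia were sorted as CD11b+ cells with low to intermediate CD45 and macrophages as CD11b+ cells with high CD45, a gate that takes in border-associated and infiltrated macrophages but also neutrophils and NK cells. There were 8 groups of 2 libraries, 1 from females and 1 from males, and the methods give 4 to 7 mice injected per sex, genotype and treatment, without saying how the mice of a library were pooled. They name 2 batches of mice, and the labels do not say which libraries came from which. The study left out the male CD163KO MONO libraries, so the fits use 14 libraries, 7 per population, and those 2 libraries are shown beside them. The paper also reports a correction for batch and the removal of outlier samples in both populations, which the labels do not identify. No batch term was fitted here.

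Glycolysis splits glucose into pyruvate in the cytosol and yields ATP without oxygen. Hif1a encodes the oxygen-regulated subunit of the transcription factor HIF-1, which binds short DNA elements beside genes of glucose uptake, glycolysis and lactate formation. In myeloid cells this programme is known for its rise under hypoxia and after activation by microbial products.

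The libraries held 8648751 to 21433841 expected counts. Markers fitted the population labels in all 16 libraries: the 12 homeostatic microglia markers summed to 17736 to 43448 FPKM in microglia and to 956 to 1877 in macrophages, and the 12 neutrophil markers to 22110 to 134450 FPKM in macrophages and to 1050 to 2857 in microglia. The macrophage libraries therefore hold a large neutrophil signal, and in bulk RNA fewer cells of a type and less RNA per cell cannot be told apart. Cd163 had 0 or 1 expected counts in the 4 CD163KO macrophage libraries and 748 to 5275 in the 4 WT ones. In microglia it had 5 to 23 counts in CD163KO libraries, 46 and 101 in the female WT ones and 0 and 1 in the male WT ones, so the microglia do not check the genotype of males. Counts of 4 Y-linked genes summed to 0 to 2 in 7 of the 8 libraries labelled female but to 799 in the microglia library of female CD163KO MONO mice, which goes against that label.

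The libraries also fell into 2 classes that the design does not explain. The 10 most abundant transcripts took 38.0% to 60.4% of the counts in 6 macrophage libraries but 15.4% in male CD163KO MONO and male WT PFF macrophages. They took 13.4% to 16.1% in 6 microglia libraries but 46.0% and 57.2% in male CD163KO MONO and male WT PFF microglia. Transcripts of at least 3000 bases took 6.55% to 17.2% of the counts in the 8 libraries of the high class and 28.1% to 37.1% in the 8 of the low class. None of the 10 genes was among the 10 most abundant transcripts of any library. The class runs with the population except in these 2 combinations of sex, genotype and treatment, and the male WT PFF libraries are the only ones of their class within their population among the 7 used in the fits.

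Hif1a had the lowest median of the 10 genes in both populations, and its level followed the class of the library. In macrophages it stood at 2.63 and 2.34 FPKM in female and male WT MONO, and at 0.92 and 31.7 FPKM in female and male WT PFF. In CD163KO macrophages it stood at 1.25 and 22.7 FPKM in female and male MONO, and at 3.39 and 1.35 FPKM in female and male PFF. The high values are those of the 2 macrophage libraries of the low class.

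In microglia Hif1a stood at 14.6 and 13.7 FPKM in female and male WT MONO, and at 21.3 and 2.13 FPKM in female and male WT PFF. In CD163KO microglia it stood at 17.5 and 1.85 FPKM in female and male MONO, and at 7.89 and 13.4 FPKM in female and male PFF. Here the low values are those of the 2 microglia libraries of the high class. Over both populations Hif1a ranged from 0.92 to 3.39 FPKM in the 8 libraries of the high class and from 7.89 to 31.7 FPKM in the 8 of the low class, with no overlap. On counts scaled by TMM, as CPM, it ranged from 9.77 to 23.6 in the high and from 21.97 to 102 in the low class, so that the classes just overlapped, through the female CD163KO PFF libraries of both populations.

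The fit of all 16 libraries had population and class as terms and the combination of sex, genotype and treatment as a block. It gave Hif1a 1.78 log2 units lower in the high class (log2 fold change -1.78, SE 0.36, adjusted p = 0.00815, edgeR's quasi-likelihood test). With that block, the value comes from how the male WT PFF and male CD163KO MONO pairs depart from the other combinations. Hif1a was the only 1 of the 10 genes past the threshold for class, which 12.4% of the 13838 genes tested passed. Eno1, at 0.99 (SE 0.18, adjusted p = 0.00429), Hk2, at 0.92 (SE 0.21, adjusted p = 0.0133), and Aldoa, at 0.84 (SE 0.19, adjusted p = 0.0124), met the limit on p but not on fold, and lay near the median of all genes in that fit, which was 0.88. The threshold here and below is a Benjamini-Hochberg adjusted p of at most 0.05 together with a change of at least 2-fold. Gapdh FPKM was also free of overlap between the classes, at 93.0 to 287 FPKM in the high and 293 to 589 FPKM in the low class, but its fitted class difference of 0.35 log2 units (SE 0.15, adjusted p = 0.136), below the median of all genes, met neither limit. The Hif1a transcripts in the tables are 4436 to 4788 bases long, those of Gapdh 1296 and 1444 bases. The part of transcript length, RNA quality or amplification in the Hif1a difference was not tested.

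**Figure D1:**
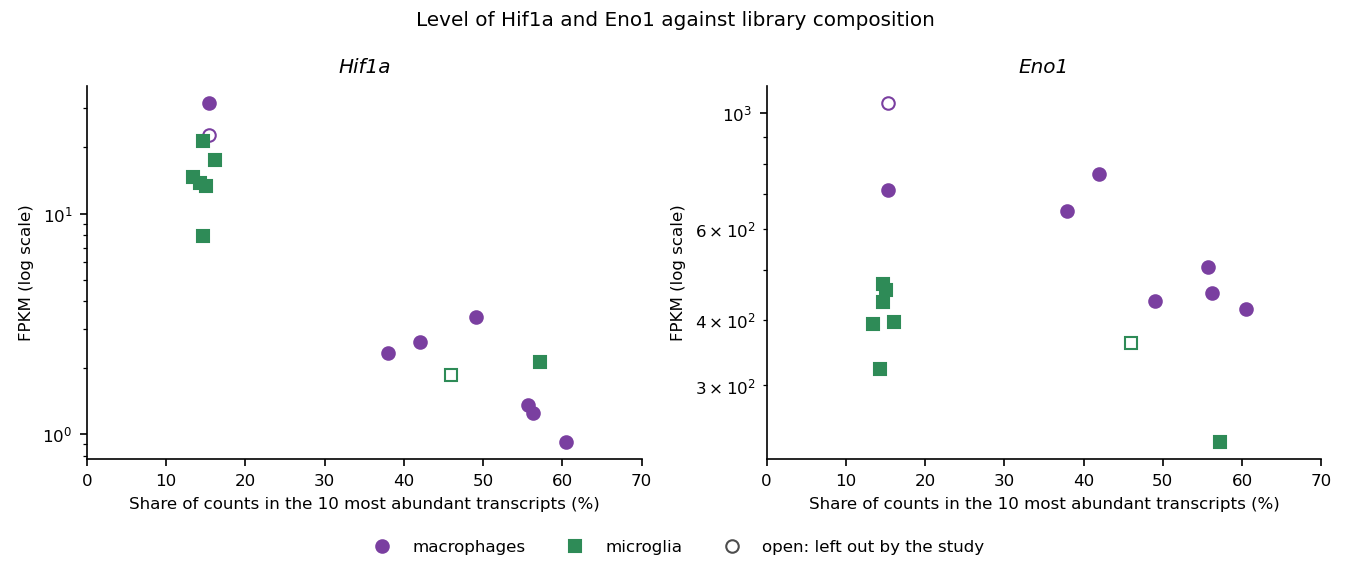
Level of Hif1a (left) and Eno1 (right) in FPKM on a log axis against the share of all counts held by the 10 most abundant transcripts of the library, 16 libraries; circles are macrophages, squares microglia, open symbols the libraries left out by the study. Hif1a lies at 0.92 to 3.39 FPKM in every library with a share above 30% and at 7.89 to 31.7 FPKM in every library below it, while Eno1 shows no such break.

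The 250 bases before the Hif1a start in the promoter table are shown, with those of Pgk1 and Ldha, because they hold the core letters of the element that HIF-1 binds. The letters searched were ACGTG and GCGTG on both strands, and a CACGTG counts as a match on each strand. They stand in capitals, in RefSeq sequence of GRCm38.p6 (the build also called mm10), 5′ to 3′ on the strand of the gene. The Hif1a window is chr12:73907617-73907866 on the plus strand, the Pgk1 window chrX:106186850-106187099 on the plus strand, and the Ldha window chr7:46845554-46845803 on the plus strand, before the first of 2 Ldha starts in that table. RefSeq places the outermost starts of Hif1a and Ldha upstream of these windows, at 73901324 and 46842274, and those regions were not searched.
Hif1a: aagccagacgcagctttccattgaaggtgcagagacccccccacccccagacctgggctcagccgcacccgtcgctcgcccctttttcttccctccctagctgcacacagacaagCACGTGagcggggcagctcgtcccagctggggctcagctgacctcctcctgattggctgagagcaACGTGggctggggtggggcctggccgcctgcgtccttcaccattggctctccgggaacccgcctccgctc
Pgk1: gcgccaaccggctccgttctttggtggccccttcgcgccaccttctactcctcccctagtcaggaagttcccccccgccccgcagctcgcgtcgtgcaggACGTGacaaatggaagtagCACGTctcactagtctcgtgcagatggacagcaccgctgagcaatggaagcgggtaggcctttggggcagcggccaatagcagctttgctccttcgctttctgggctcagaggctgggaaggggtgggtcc
Ldha: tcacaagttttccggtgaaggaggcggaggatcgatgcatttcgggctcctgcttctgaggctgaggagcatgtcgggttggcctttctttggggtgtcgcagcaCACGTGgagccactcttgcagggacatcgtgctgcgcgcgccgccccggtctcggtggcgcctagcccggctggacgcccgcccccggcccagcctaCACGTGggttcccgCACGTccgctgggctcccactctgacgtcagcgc
ACGTG was found 3 times in the Hif1a window, 2 times in that of Pgk1 and 5 times in that of Ldha. All 10 genes matched the promoter table, with 16 windows in all. Of these, 8 (50.0%) held ACGTG and 14 (87.5%) held ACGTG or GCGTG. Among 32851 windows of the same length, 16.6% held ACGTG and 38.6% held either. A match is a run of letters and not a measured binding site.

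The level of the enzymes is given in the order of the pathway. Hk2 and Hk3, hexokinases that trap glucose as glucose 6-phosphate, stood at similar levels to each other within each population. Hk2 was at 13.8 and 19.3 FPKM in female and male WT MONO macrophages, 7.97 and 13.3 FPKM in WT PFF, 14.2 and 25.4 FPKM in CD163KO MONO and 8.82 and 9.61 FPKM in CD163KO PFF. In microglia it was at 48.1 and 75.9 FPKM in WT MONO, 48.0 and 25.1 FPKM in WT PFF, 55.4 and 43.7 FPKM in CD163KO MONO and 54.6 and 47.5 FPKM in CD163KO PFF. Hk2 was higher in microglia in all 8 combinations of sex, genotype and treatment. The 7 microglia libraries used in the fits did not overlap the 7 of macrophages, and the male CD163KO MONO macrophages, at 25.4 FPKM, reached just above the lowest microglia library.

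Hk3, the hexokinase found mainly in blood and myeloid cells, had a median of 12.7 FPKM in macrophages (5.31 to 19.2, n = 7) and of 49.0 FPKM in microglia (10.6 to 64.0, n = 7). Its lowest microglia value was that of male WT PFF. Hk2 exceeded Hk3 in 4 of 7 macrophage and 4 of 7 microglia libraries, so the order of the pair was not settled. The tables list 4 Hk3 transcripts. NM_001033245 took 83.6% to 100% of Hk3 FPKM in the 6 macrophage libraries of the high class, 49.7% and 0% in the 2 of the low class, and 3.26% to 42.1% in the 8 microglia libraries.

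Pfkl, the liver-type phosphofructokinase of the committed step, showed the widest gap in medians between the populations. In macrophages it was at 9.82 and 4.63 FPKM in female and male WT MONO, 4.11 and 10.5 FPKM in WT PFF, 4.25 and 11.4 FPKM in CD163KO MONO and 5.12 and 4.41 FPKM in CD163KO PFF. In microglia it was at 38.2 and 23.7 FPKM in WT MONO, 56.4 and 8.96 FPKM in WT PFF, 46.1 and 14.7 FPKM in CD163KO MONO and 47.8 and 50.8 FPKM in CD163KO PFF. The medians of 7 libraries were 4.63 and 46.1 FPKM, a ratio of 9.96. Only the male WT PFF microglia fell within the range of the macrophages.

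Aldoa, the aldolase that splits fructose 1,6-bisphosphate, had close medians, at 287 FPKM in macrophages (175 to 470) and 380 FPKM in microglia (196 to 470). Gapdh, which makes 1,3-bisphosphoglycerate and NADH and often serves as a reference gene, varied on FPKM and less on the counts. It was at 222 and 229 FPKM in female and male WT MONO macrophages, 93.0 and 293 FPKM in WT PFF, 104 and 381 FPKM in CD163KO MONO and 115 and 121 FPKM in CD163KO PFF. In microglia it was at 589 and 536 FPKM in WT MONO, 555 and 150 FPKM in WT PFF, 377 and 287 FPKM in CD163KO MONO and 470 and 520 FPKM in CD163KO PFF. Across the 16 libraries Gapdh thus ran from 93.0 to 589 FPKM, but only from 233 to 438 on TMM-scaled CPM, the counts over the library total as TMM sets it (a scaling described with the first comparison). On FPKM it had the fourth highest median of the 10 genes in macrophages and the highest in microglia. Of the 2 Gapdh transcripts listed, NM_001289726 took 54.5% to 88.8% of Gapdh FPKM in the 8 microglia libraries and 0% to 61.6% in the 8 macrophage libraries.

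Pgk1, which makes the first ATP of the pathway and lies on chromosome X, had nearly equal medians of 49.7 FPKM in macrophages (18.1 to 106) and 50.3 FPKM in microglia (17.7 to 73.4). Eno1, the enolase that makes phosphoenolpyruvate, was the highest of the 10 genes in macrophages. It was at 764 and 649 FPKM in female and male WT MONO macrophages, 422 and 711 FPKM in WT PFF, 452 and 1046 FPKM in CD163KO MONO and 435 and 508 FPKM in CD163KO PFF. In microglia it was at 393 and 322 FPKM in WT MONO, 435 and 233 FPKM in WT PFF, 398 and 362 FPKM in CD163KO MONO and 470 and 457 FPKM in CD163KO PFF. Eno1 was lower in microglia in 6 of 8 combinations, the exceptions being the PFF libraries of female WT and female CD163KO mice. Eno1b, a near-identical copy that could take some of its reads, stayed at or below 2.24 FPKM.

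Pkm, the pyruvate kinase of the last step, had medians of 167 FPKM in macrophages (94.0 to 288) and 191 FPKM in microglia (67.9 to 221). Ldha, which turns pyruvate into lactate, had medians of 103 FPKM in macrophages (69.2 to 214) and 136 FPKM in microglia (52.2 to 223). The ratio of Ldha to Pkm overlapped between the populations, at 0.590 to 1.13 in 7 macrophage and 0.620 to 1.16 in 7 microglia libraries. In both populations Aldoa, Gapdh, Eno1, Pkm and Ldha stood above the hexokinases and Pfkl in every library.

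**Figure D2:**
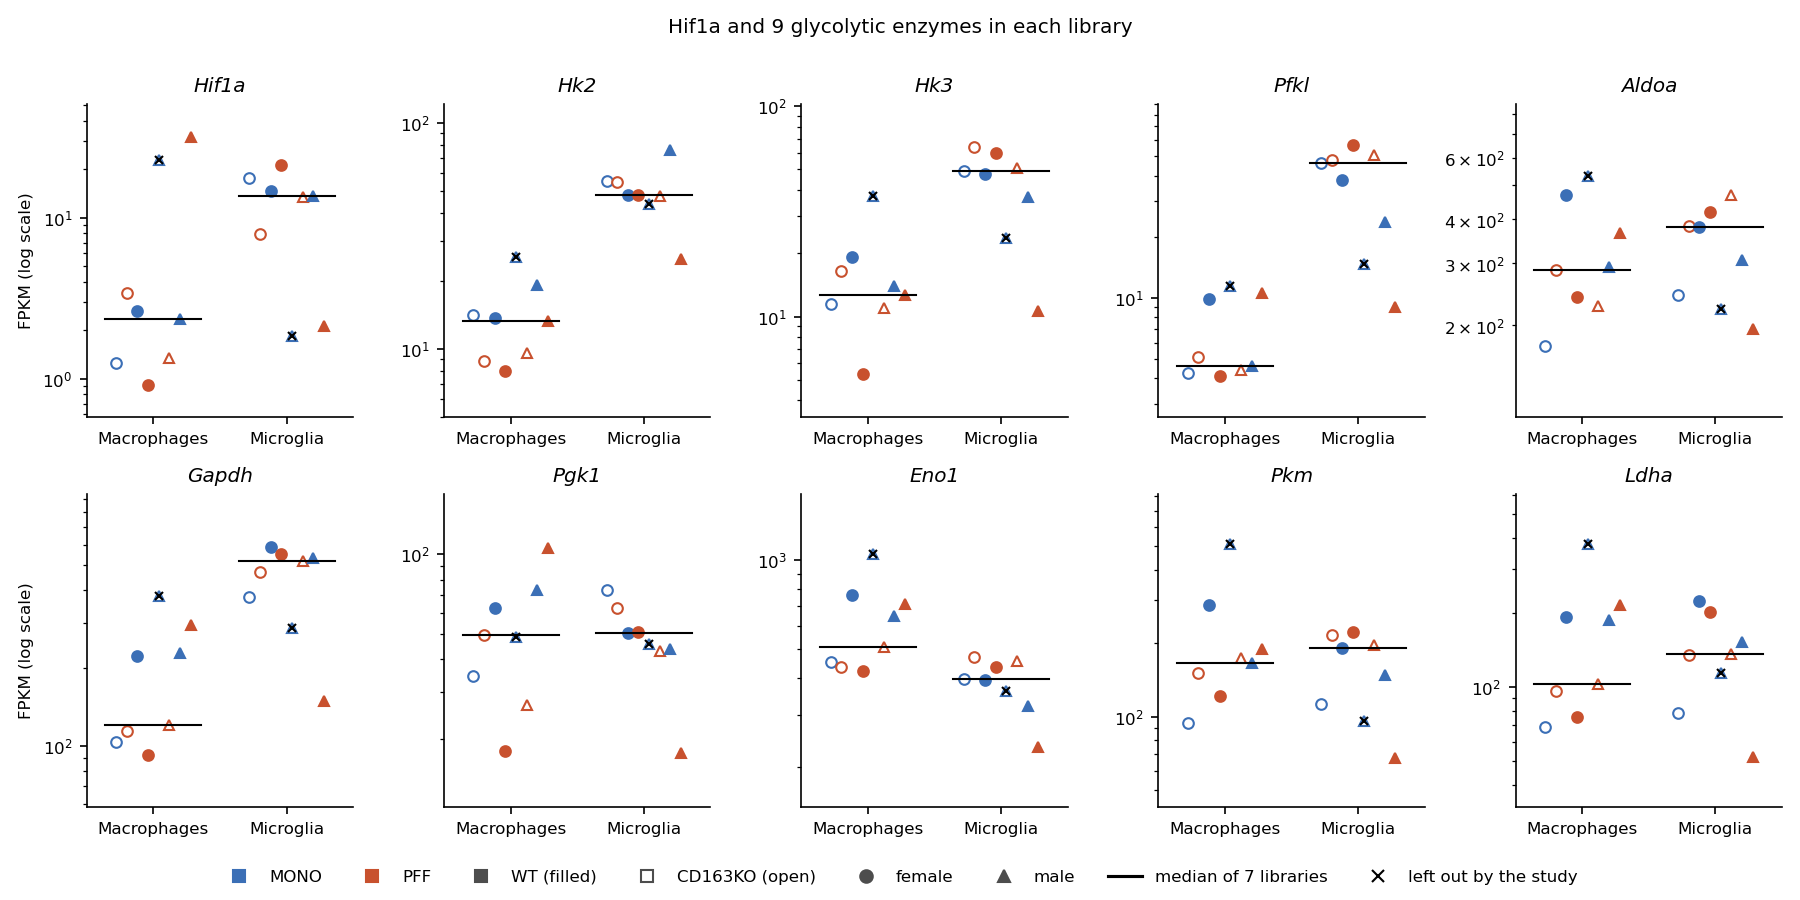
FPKM on a log axis of Hif1a and the 9 enzymes in each of 16 libraries, macrophages left and microglia right in each panel. Colour gives the treatment, filling the genotype, shape the sex, a cross the libraries left out by the study and the line the median of the other 7. Hk2 and Pfkl separate the populations in most libraries. Male WT PFF microglia are the lowest of the 7 microglia libraries used in every panel, while male WT PFF macrophages lie within the range of the others for several genes.

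Pkm makes 2 messages from 1 gene through a choice between 2 exons of equal length, and both were in the tables. The exons are shown because the choice between them sets which pyruvate kinase is made. NM_001253883 carries the exon of the M1 form at chr9:59675029-59675195 and NM_011099 that of the M2 form at chr9:59675568-59675734, both on the plus strand of GRCm38 and both coding. In the pair below, from GENCODE transcripts, capitals mark the 64 of 167 bases at which the exons differ (61.7% identity).
Pkm M1 exon: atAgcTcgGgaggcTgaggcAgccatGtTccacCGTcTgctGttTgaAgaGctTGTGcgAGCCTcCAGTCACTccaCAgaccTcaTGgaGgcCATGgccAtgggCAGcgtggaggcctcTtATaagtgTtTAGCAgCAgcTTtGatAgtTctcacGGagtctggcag
Pkm M2 exon: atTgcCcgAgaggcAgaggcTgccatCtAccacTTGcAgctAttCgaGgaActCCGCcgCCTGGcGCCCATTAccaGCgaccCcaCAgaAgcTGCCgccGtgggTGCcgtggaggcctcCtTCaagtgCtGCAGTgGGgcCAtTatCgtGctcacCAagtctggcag
The M2 message took most of Pkm FPKM in every library. The M1 message took 5.83% and 16.4% in female and male WT MONO macrophages, 6.17% and 0.0738% in WT PFF, 10.03% and 1.27% in CD163KO MONO and 19.7% and 4.92% in CD163KO PFF. In microglia it took 12.6% and 25.6% in WT MONO, 16.4% and 14.5% in WT PFF, 24.4% and 18.5% in CD163KO MONO and 13.3% and 13.5% in CD163KO PFF. The M1 share was higher in microglia in 7 of 8 combinations, the exception being the female CD163KO PFF pair, and the ranges overlapped. The GENCODE transcripts that gave the exons also differ at both ends, whereas both Pkm transcripts in the tables are 2432 bases long. The shares are estimates that carry no error in the tables.

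The first comparison asked how the genes differ between microglia and macrophages of the same sex, genotype and treatment. Of the 10 genes, 6 passed the threshold in the fit of 14 libraries with the combination as a block, against 16.9% of the 13700 genes tested. Pfkl was the only 1 called higher in microglia, at a log2 fold change of 1.20 (SE 0.24, adjusted p = 0.0041), against 6.21% of all genes. Those called lower were Eno1 at -1.96 (SE 0.34, adjusted p = 0.00192), Pkm at -1.46 (SE 0.29, adjusted p = 0.0045), Pgk1 at -1.39 (SE 0.22, adjusted p = 0.000971), Ldha at -1.34 (SE 0.23, adjusted p = 0.0016) and Aldoa at -1.19 (SE 0.31, adjusted p = 0.0212), against 10.7% of all genes.

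Hif1a, Hk2, Hk3 and Gapdh did not pass, at 0.67 (SE 0.51), 0.61 (SE 0.32), 0.29 (SE 0.27) and -0.00 (SE 0.20). The median of the 10 genes was -0.60 and that of all genes tested 0.37. On simulated counts, with fewer genes changed than were called here and no limit on fold, the test recovered 12.5% of 4-fold changes. That share does not measure how many changes were missed in this comparison, and a gene that did not pass may still differ. Without the male WT PFF pair Hif1a passed as well, at 1.06 (SE 0.32, adjusted p = 0.02), and the other calls remained. Aldoa lost its call whenever 1 of the other 6 combinations was left out, among them the female CD163KO MONO pair whose microglia library goes against its label.

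The sign of several of these values depends on the scale. The counts were scaled by TMM, which sets library factors from the bulk of the genes and discounts a few very abundant ones, whereas FPKM divides by all fragments. On log2(FPKM + 1), limma put the median of all genes at 1.05 rather than 0.37, and of the 10 genes it called Hk2 at 1.94, Hk3 at 1.67, Pfkl at 2.38 and Gapdh at 1.46, all higher in microglia. Eno1 was at -0.54, Pgk1 at -0.01, Pkm at -0.06, Ldha at 0.05 and Aldoa at 0.23, none of them called. Relative to the median of all genes, Eno1, Pkm, Pgk1, Ldha and Aldoa lay below it and Pfkl, Hk2 and Hif1a above it on both scales, while Hk3 and Gapdh lay below it on the counts and above it on FPKM.

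With library class as a term over all 16 libraries, 5 of the 10 genes passed, against 24.7% of 13838 genes. Hk2 (1.24, SE 0.21) and Pfkl (1.27, SE 0.22) were called higher in microglia, and Eno1 (-1.26, SE 0.18), Pkm (-1.18, SE 0.23) and Ldha (-1.04, SE 0.17) lower. Hif1a changed sign in that fit, to -0.71 (SE 0.35, adjusted p = 0.156), without passing. Within the 8 libraries of the high class, Hk2 (1.41) and Pfkl (1.05) passed, against 18.2% of genes. Within the 8 of the low class, Hk2 (1.27), Pfkl (1.79), Eno1 (-1.32), Pkm (-1.18) and Ldha (-1.18) passed, against 22.4% of genes, and Hif1a was at -1.15 (adjusted p = 0.0534). Each class holds only 2 libraries of 1 of the populations.

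**Figure D3:**
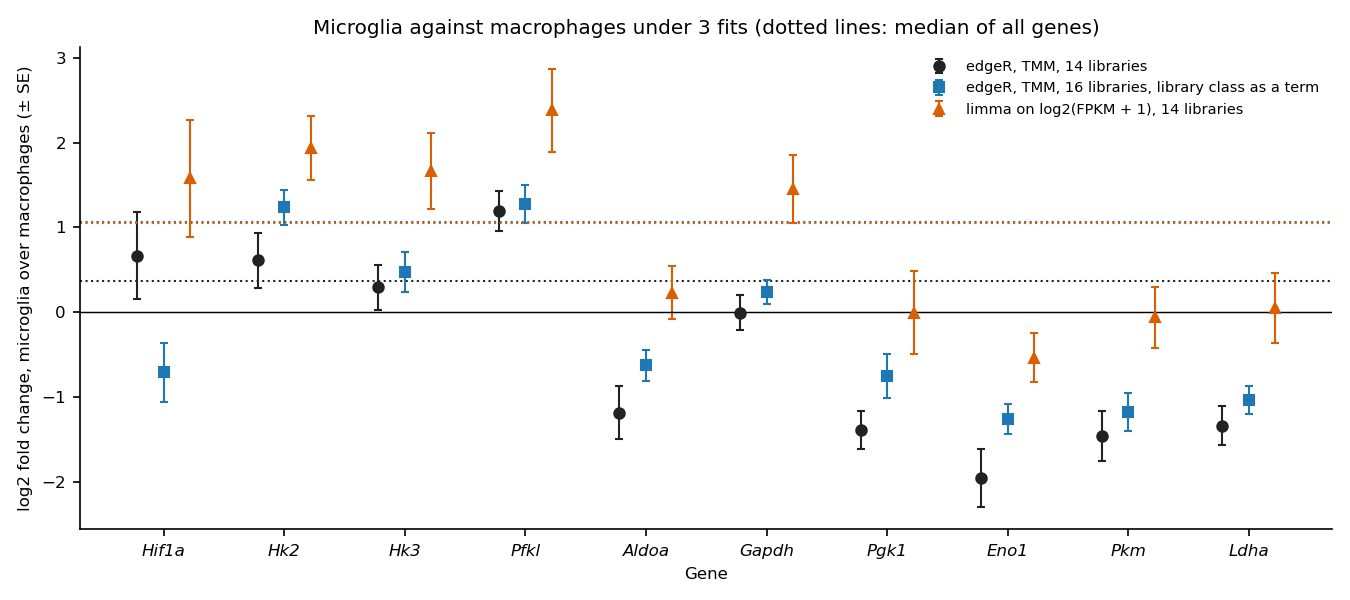
Log2 fold change of microglia over macrophages with its standard error for the 10 genes under 3 fits, and the median of all genes in each fit as dotted lines, of which those at 1.05 and 1.07 coincide. Eno1, Pgk1 and Pkm are negative and Hk2, Hk3 and Pfkl positive in all 3 fits, whereas Hif1a, Aldoa, Gapdh and Ldha change sign.

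A measure that no library scaling can move is the share of each enzyme in the summed FPKM of the 9 enzymes of its library. Eno1 made up 37.1% to 47.2% of the sum in 7 macrophage libraries and 19.6% to 30.6% in 7 microglia libraries, with no overlap, and was lower in microglia in 8 of 8 combinations. Gapdh made up 9.41% to 15.3% in macrophages and 19.7% to 32.5% in microglia, again with no overlap. The ratio of Eno1 to Gapdh was therefore 2.43 to 4.53 in the 8 macrophage libraries and 0.602 to 1.55 in the 8 microglia libraries.

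Among the hexokinases, Hk2 made up 0.673% to 1.48% of the sum in macrophages and 2.34% to 4.61% in microglia, without overlap. Pfkl made up 0.283% to 0.549% in macrophages and 1.18% to 3.22% in microglia, without overlap. Hk3 and Pkm kept 1 direction in all 8 combinations, Hk3 higher and Pkm lower in microglia, with overlapping ranges. Aldoa, Pgk1 and Ldha went both ways, being higher in microglia in 4, 3 and 2 of 8 combinations. The ranges of Eno1, Gapdh, Hk2 and Pfkl stayed apart with the male CD163KO MONO libraries included. Within microglia the 2 libraries of the high class, male WT PFF and male CD163KO MONO, had the highest Eno1 shares (30.6% and 29.9%). They also had the lowest of Gapdh (19.7% and 23.8%) and Pfkl (1.18% and 1.22%), but not of Hk2 (3.30% and 3.62%). The same combinations, of the low class in macrophages, had the lowest Eno1 shares there (37.1% and 35.2%). A share of a sum does not say which of the enzymes differs in amount, and neutrophil markers differ between the same libraries. The part of the class and of these markers in the shares was not tested.

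**Figure D4:**
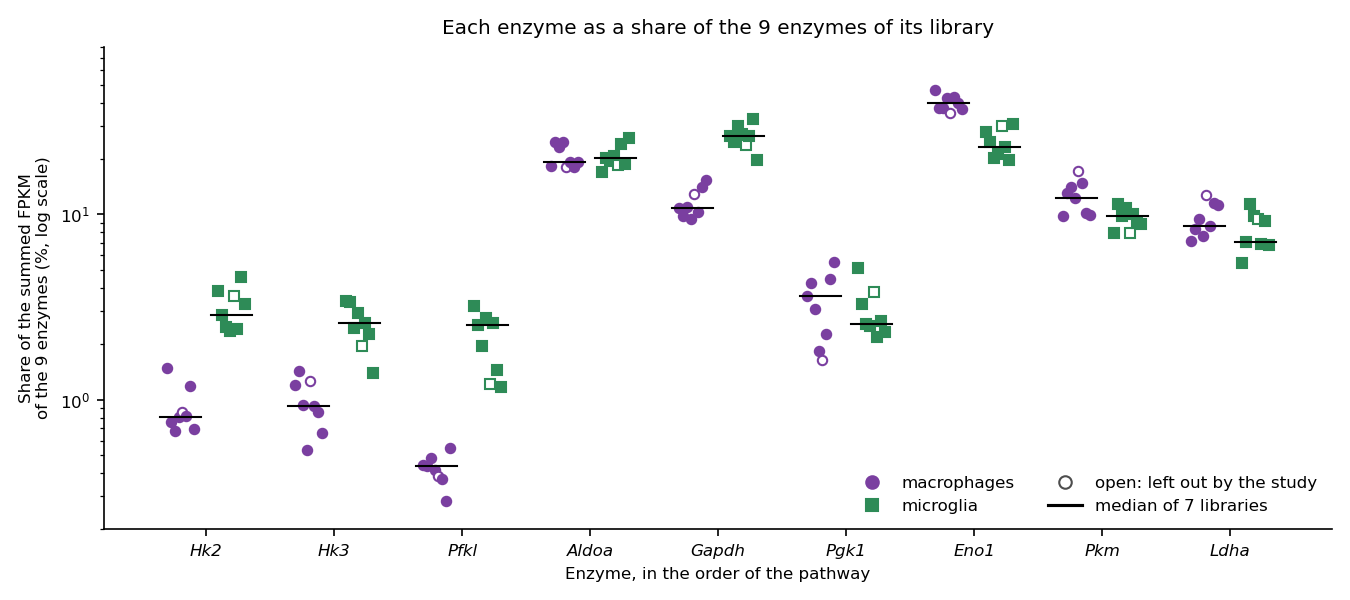
Share of each enzyme in the summed FPKM of the 9 enzymes of a library, in percent on a log axis, for 8 macrophage (circles) and 8 microglia (squares) libraries; lines are medians of 7 and open symbols the libraries left out by the study. Hk2, Pfkl, Gapdh and Eno1 occupy separate ranges in the populations, with Eno1 at 35.2% to 47.2% in the 8 macrophage and 19.6% to 30.6% in the 8 microglia libraries.

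The other genes of glucose use give the setting. Of 26 further genes of glycolysis and of glucose and lactate transport, 24 were tested, 2 were called higher and 5 lower in microglia, against 6.21% and 10.7% of all genes, and their median was -0.53 against 0.37 for all genes. Slc2a5, the fructose transporter GLUT5 and a known microglia gene, was at 150 to 402 FPKM in 7 microglia libraries and at 0.04 to 3.71 FPKM in macrophages (log2 fold change 6.56, SE 0.82, adjusted p = 0.00019). Slc2a3, the high-affinity glucose transporter GLUT3, was at 1.38 to 23.8 FPKM in macrophages and 0.03 to 3.66 FPKM in microglia (-4.19, SE 0.93, adjusted p = 0.00836). Pfkfb3, which makes the activator of phosphofructokinase, was called higher in microglia (1.61, SE 0.29), and Gpi1 (-1.48, SE 0.20) and Aldoc (-1.36, SE 0.41) were among those called lower. The FPKM of Gpi1 and Aldoc was higher in microglia in 4 and 5 of 7 combinations, so their direction rests on the scaling.

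None of 8 tested HIF pathway regulators was called, against 16.9% of all genes, with a median of 0.22. Of 20 tested hypoxia response genes, 3 were called higher and 4 lower in microglia, against 6.21% and 10.7% of all genes, with a median of 0.27. Pdk1, the kinase that shuts pyruvate dehydrogenase, was higher (2.31, SE 0.49), as were Kdm3a (1.74, SE 0.49) and P4ha1 (1.61, SE 0.23), a demethylase and a collagen hydroxylase. Bhlhe40, a transcription factor of immune activation, was at 2.37 to 19.6 FPKM in macrophages and 0 to 4.59 FPKM in microglia (-5.12, SE 1.05), Ndrg1 at 1.93 to 14.1 and 0 to 2.49 FPKM (-4.32, SE 0.93), and Higd1a was also called lower (-1.52, SE 0.34), though its FPKM was higher in microglia in 4 of 7 combinations. The list as a whole thus went both ways.

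In the pentose phosphate pathway, which branches off at glucose 6-phosphate, 2 of 7 genes were called, against 16.9% of all genes, both lower in microglia, namely Taldo1 (-2.31, SE 0.21) and Tkt (-1.50, SE 0.21) of its non-oxidative arm. Taldo1 FPKM was lower in microglia in 6 of 7 combinations and that of Tkt in 3 of 7. Among 13 genes of pyruvate entry into mitochondria 2 were called, a share near that of all genes: Pdk1 was called higher and the pyruvate carrier subunit Mpc2 lower (-1.41, SE 0.32), though Mpc2 FPKM was higher in microglia in 4 of 7 combinations. Of 3 tested gluconeogenesis genes, G6pc3 was called higher (1.20, SE 0.30), against 6.21% of all genes.

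The second comparison asked whether fibrils changed the genes relative to monomer. In macrophages 0 of the 10 genes passed, and 0.0% of the 11985 genes tested, of which 125 had an unadjusted p under 0.05. DESeq2 also called 0 of the 10 genes here and in each of the fits of treatment, genotype, their interaction and sex that follow. The fitted log2 fold changes of PFF over MONO ran from -0.41 for Hk2 (SE 0.42) to 1.28 for Hif1a (SE 0.94), with a median of 0.03. The Hif1a value rests on 1 library: without male WT PFF macrophages it was 0.28 (SE 0.55). Hk2 FPKM was lower in PFF than in MONO in all 3 strata, with differences of -0.72 in WT females, -0.63 in CD163KO females and -0.50 in WT males on the log2(FPKM + 1) scale. On TMM-scaled CPM it was lower in CD163KO females (147 to 71.2) and WT males (111 to 50.6) but higher in WT females (97.1 to 115).

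In microglia 0 of the 10 genes passed for PFF against MONO, and 0.0% of 12736 genes, of which 769 had an unadjusted p under 0.05. The values of 9 of the 10 genes were positive, with a median of 0.51 against 0.13 for all genes, the highest being Aldoa at 0.83 (SE 0.42) and Pkm at 0.81 (SE 0.37). On log2(FPKM + 1), limma put 7 of the 10 below 0, from -0.66 for Hif1a (SE 0.82) to -0.01 for Pfkl (SE 0.79), and called 0. On that scale 7 of the 10 genes were higher in PFF in each of the 2 female pairs, and all 10 were lower in the male WT pair, whose libraries differ in class. The 9 genes of the response to tissue dissociation, among them Fos and Jun, had a median of 1.01 in the same fit, with 0 of 9 called. Their summed FPKM went from 2705 to 4492 in WT females, from 1474 to 2848 in CD163KO females and from 1332 to 848 in WT males. The oligodendrocyte and dividing-cell markers had medians of 0.99 and 1.20, those of border-associated macrophages and monocytes -0.68 and -0.87. The part of these lists was not tested. The SEs of the 10 genes leave room for differences of more than 2-fold. On simulated counts with the spread of these libraries, the same test was run without the limit on fold. It recovered 33% of 4-fold changes in microglia and 1% in macrophages, so changes of that size could be missed.

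The female libraries allow a comparison within the class, with 1 library a group and therefore no test. In WT macrophages all 10 genes were lower in PFF than in MONO, and 6 of them by at least 1 on the log2(FPKM + 1) scale, a step that 41.5% of all genes made. They were Pgk1 (62.6 to 18.1 FPKM), Hk3 (19.2 to 5.31), Ldha, Gapdh, Pkm and Pfkl. The median of all genes in that pair was -0.87, and 8 of the 10 genes lay below it. In CD163KO macrophages 0 of the 10 genes made such a step, against 21.9% of all genes, and 8 of them were higher in PFF, 6 of them above the median of all genes, which was 0.37. The neutrophil markers fell in the same pairs, from 120850 to 22110 summed FPKM in WT and from 98599 to 32835 in CD163KO. Of the 14 marker lists, 8 moved as most of the 10 genes did, down in WT and up in CD163KO. The 6 choroid plexus markers went from 12617 to 2182 summed FPKM in WT and from 161 to 4372 in CD163KO, the 12 of border-associated macrophages from 3172 to 1956 and from 3547 to 5029, and the 12 of homeostatic microglia from 1486 to 1084 and from 956 to 1396. The 9 dissociation genes rose in both, from 4239 to 4682 and from 2860 to 6110. Over the 8 macrophage libraries the choroid plexus markers summed to 84.9 to 12617 FPKM, with 2 of the 6 detected in every library. The part of these lists was not tested.

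In female WT microglia 0 of the 10 genes made a step of 1 between MONO and PFF, against 19.5% of all genes. In female CD163KO microglia Hif1a did, falling from 17.5 to 7.89 FPKM, against 20.9% of all genes. The MONO library of that pair is the one whose Y-linked counts go against its label. The other 9 genes differed by less than 1 in that pair, the largest being Pkm, at 0.93 higher in PFF.

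The third comparison asked what the loss of CD163 changed. In macrophages 0 of the 10 genes passed, against 0.00834% of genes (1 gene), and 80 genes had an unadjusted p under 0.05. The log2 fold changes of CD163KO over WT ran from -0.73 for Hif1a (SE 0.95) to 0.73 for Hk3 (SE 0.46), with 5 of the 10 below 0, against 9 by limma on log2(FPKM + 1). In microglia 0 of the 10 genes passed, and 0.0% of all genes, of which 168 had an unadjusted p under 0.05. Ldha had the lowest value, at -0.91 (SE 0.33), with an unadjusted p of 0.0195 and an adjusted p of 1 by edgeR. In that fit 7 of the 10 values were below 0, whereas limma on log2(FPKM + 1) put 9 above 0, all but Ldha. On FPKM, Hk2, Hk3, Pgk1 and Eno1 were higher in CD163KO in all 3 strata, by 0.02 to 0.54 in the female pairs and by 0.89 to 2.16 in the pair of male PFF libraries, which differ in class, and 0 genes were lower in all 3. On simulated counts the genotype test recovered 42.5% of 4-fold changes in microglia and 4.5% in macrophages.

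Ldha was at 223 FPKM in female WT MONO and 78.5 FPKM in female CD163KO MONO microglia, and at 201 and 134 FPKM in female WT and CD163KO PFF. In males it was at 152 FPKM in WT MONO, 114 FPKM in CD163KO MONO, 52.2 FPKM in WT PFF and 136 FPKM in CD163KO PFF. On FPKM it was lower without CD163 in both female pairs and in male MONO but not in male PFF. On TMM-scaled CPM the female pairs kept this direction and the male pairs turned, at 138 in WT and 217 in CD163KO under MONO and at 182 and 133 under PFF. Both male pairs set a library of one class against a library of the other. Without the library labelled female CD163KO MONO microglia the value was -0.74 (unadjusted p = 0.121, edgeR).

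In single female pairs, 5 of the 10 genes were lower by at least 1 in CD163KO than in WT MONO macrophages, namely Pkm, Ldha, Aldoa, Gapdh and Pfkl, a step that 27.1% of all genes made in either direction, and the median of all genes was -0.52, with 1 of the 10 genes above it. Under PFF, Hk3, Pgk1 and Hif1a were higher by at least 1 in CD163KO macrophages, against 34.7% of all genes. The median of all genes was then 0.74, with 3 of the 10 genes above it, so relative to all genes most of the 10 lay low in both pairs. The choroid plexus, neutrophil, homeostatic microglia and dissociation sums given above were lower in CD163KO under MONO and higher under PFF. Those of border-associated macrophages were higher in CD163KO under both, and the part of these lists was not tested. These pairs share libraries with the pairs of the second comparison. In microglia Ldha was lower in CD163KO under MONO (30.5% of all genes made the step) and Hif1a under PFF, from 21.3 to 7.89 FPKM (11.0%), and these were the only members past 1 in each pair.

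**Figure D5:**
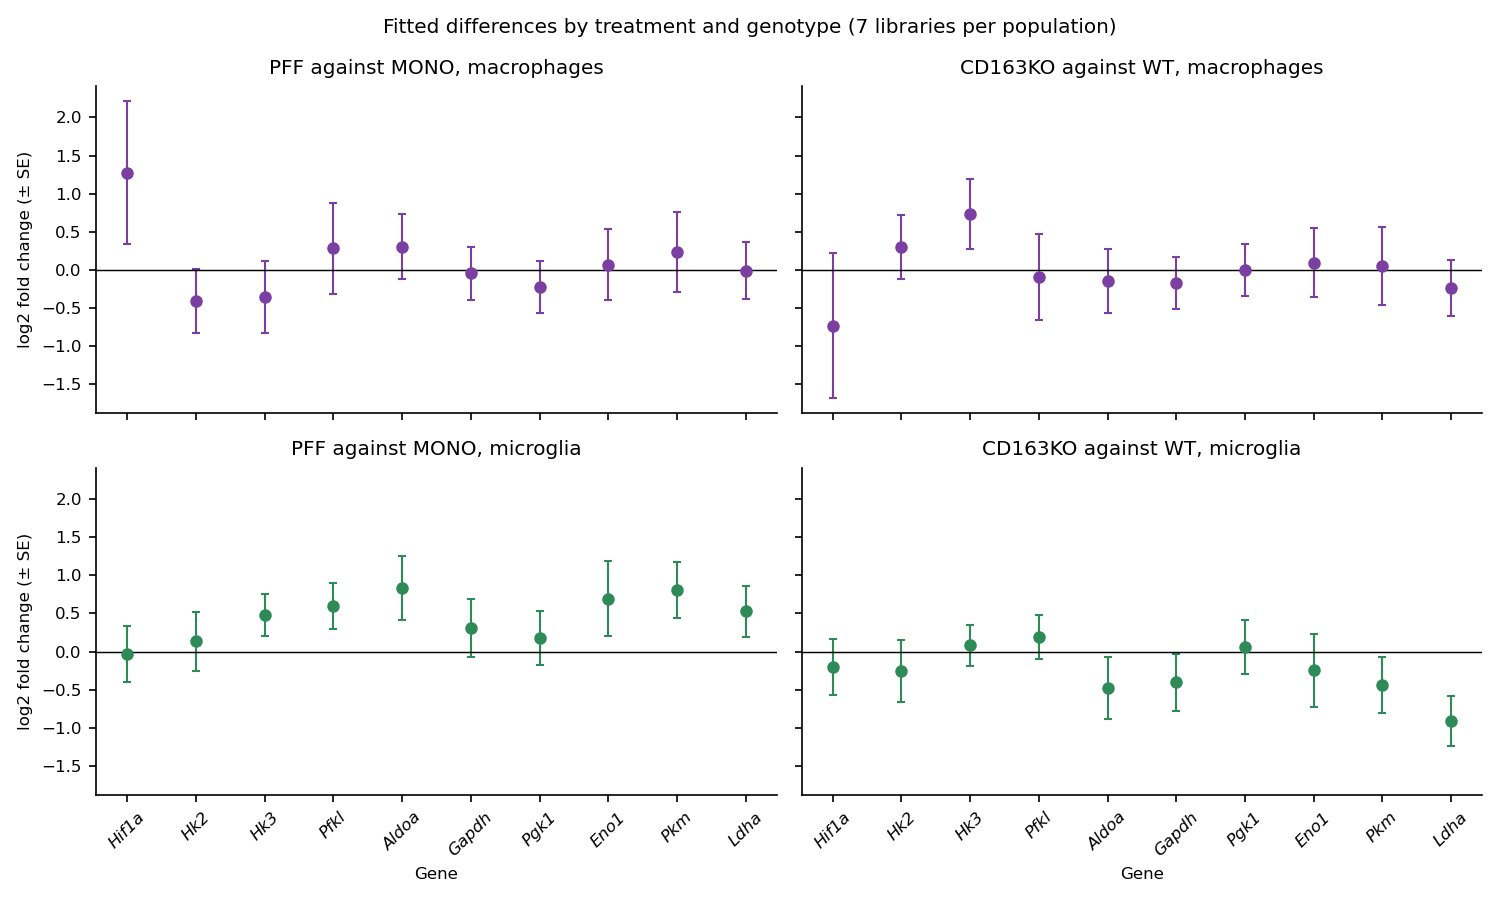
Log2 fold changes with their standard errors for the 10 genes, PFF over MONO (left) and CD163KO over WT (right), in macrophages (top) and microglia (bottom), 7 libraries per population. No value passed the threshold, and the widest errors are those of Hif1a in macrophages (SE 0.94 and 0.95).

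The difference between the genotypes in the response to PFF was tested as an interaction. None of the 10 genes passed in macrophages, where 0.0% of 13016 genes did and 59 had an unadjusted p under 0.05, or in microglia, where 0.0351% (5 genes) did and 683 had an unadjusted p under 0.05. The values ran from -1.32 (Hif1a, SE 1.81) to 1.35 (Pkm, SE 1.13) in macrophages and from -1.07 (Pgk1, SE 0.65) to 0.47 (Ldha, SE 0.73) in microglia. In microglia 7 of the 10 values were below 0, whereas limma on log2(FPKM + 1) put all 10 above 0, from 0.50 (Pgk1, SE 1.73) to 2.02 (Ldha, SE 1.51), and called 0. With 2 residual degrees of freedom this fit recovered 0% and 1% of simulated 4-fold differences.

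Sex was tested in the same fits. Between males and females 0 of the 10 genes passed in macrophages (0.0% of genes, 154 at an unadjusted p under 0.05) or in microglia (0.0%, 215). The microglia fit counts as female the CD163KO MONO library whose Y-linked counts go against its label. Without that library 3 of all genes passed and 0 of the 10. The values ran from -0.60 for Aldoa (SE 0.41) to 0.55 for Hif1a (SE 1.05) in macrophages, and from -0.36 for Pfkl (SE 0.30) to 0.56 for Hk2 (SE 0.41) in microglia. The signs moved with the scale: 3 of 10 were above 0 in macrophages and 5 in microglia, against 9 and 0 by limma on log2(FPKM + 1). In the 4 pairs of a male and a female library of 1 class, 0 of the 10 genes differed by 1 or more, against 26.6% of all genes in WT MONO and 24.8% in CD163KO PFF macrophages, and 36.7% in WT MONO and 12.5% in CD163KO PFF microglia. Pgk1, which lies on chromosome X, was higher in males in 1 of these pairs, at 62.6 and 73.2 FPKM in female and male WT MONO macrophages, and lower in 3. It was at 49.7 and 26.9 FPKM in female and male CD163KO PFF macrophages, at 50.3 and 43.9 FPKM in WT MONO microglia and at 62.5 and 43.0 FPKM in CD163KO PFF microglia. On TMM-scaled CPM it was lower in males in all 4 pairs, with 144 and 137 in WT MONO macrophages.

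The genes whose level ran most like that of Hif1a over 7 libraries, among genes at 5 FPKM or more in each, were Rbm39 (r = 0.999), Ddx47 and Prkcd in macrophages, out of 2294 genes. In microglia they included Txndc11 (r = 0.98) and Naca, out of 3175 genes. Among the enzymes r with Hif1a was 0.22 (Hk2) to 0.78 (Pgk1) in macrophages and 0.61 (Aldoa) to 0.87 (Gapdh) in microglia. Without the male WT PFF library, over the other 6, these values were 0.26 (Hk2) to 0.86 (Hk3) in macrophages and -0.27 (Pkm) to 0.14 (Pfkl) in microglia, so those of microglia rest on that library.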

How the data were processed

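RNA of sorted cells was sequenced by SMART-seq2, and each of the 16 libraries came as 1 table of RefSeq transcripts. The authors deposited estimated counts (expected counts) and FPKM per transcript, and the submitters' processing notes name Bowtie2, RSEM, DESeq2 and mm10, with no versions. Whether a table holds 1 of the stated triplicates or their pool is not given in the sources used here. Of 27787 transcripts, 27627 matched a symbol in RefSeq annotation of GRCm38.p6, and counts and FPKM were summed per gene; transcripts without a symbol took 0.0149% to 0.142% of a library's counts.

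Summed counts were rounded and tested with edgeR 4.0.16 (TMM factors, filterByExpr, quasi-likelihood F test, R 4.3.3). Populations were compared with sex, genotype and treatment combined as a block. Treatment, genotype and sex were compared within each population with the other factors as covariates, and the genotype by treatment interaction with sex as a covariate. The standard error of a log2 fold change is its size over the square root of F. Calls use the study's thresholds, an adjusted p of at most 0.05 and at least 2-fold. Alternatives were DESeq2 1.42.0, limma 3.58.1 on log2(FPKM + 1), other scalings, filters and samples, and leaving out each library. Replicates of a group are a female and a male library, so p-values measure the spread between these 14 libraries.

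The tests were tested on simulated data with the spread of the real libraries, with the limit on adjusted p but not that on fold. The 10 genes, the other lists and the rules were chosen with earlier results of these data known, and the library classes, with their limit at 30% of counts in the 10 most abundant transcripts, after seeing the data. Named genes of other lists are up to 3 called genes per direction by size of change. Fold changes on log2(FPKM + 1) understate those of low genes. Reads shared with processed pseudogenes, which Gapdh, Pgk1, Ldha, Eno1, Aldoa and Pkm have, could be split in counting. Pairs of libraries were compared over genes at 1 FPKM or more in at least 1 of both, and populations pairwise over 9121 genes. A gene that the rule for likeness to Hif1a names in microglia is not reported here.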

Additional observations from a re-analysis of the deposited data

Results flagged for a closer look

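For 3 genes the difference between PFF and MONO had 1 sign in the female and male WT pairs and the other sign in the only CD163KO pair used, that of females. Hk3 in macrophages was lower in PFF in WT, by a mean difference of -0.90 in log2(FPKM + 1), and higher in CD163KO, by 0.49. Gapdh in microglia was at -0.96 in WT and 0.32 in CD163KO, and Ldha in microglia at -0.84 in WT and 0.77 in CD163KO. The interaction between genotype and treatment did not pass for any of the 3, with edgeR's unadjusted p at 0.292 for Hk3, 0.923 for Gapdh and 0.528 for Ldha. On TMM-scaled CPM, from MONO to PFF, Gapdh was higher under PFF in all 3 pairs: 420 and 438 in WT females, 385 and 423 in WT males and 280 and 364 in CD163KO females. Ldha on that scale was at 199 and 195 in WT females, 138 and 182 in WT males and 74.2 and 130 in CD163KO females, so the sign did not separate the genotypes for either gene on this scale. Hk3 kept it in macrophages, at 78.3 and 44.2 in WT females, 46.0 and 25.1 in WT males and 67.8 and 76.8 in CD163KO females. In microglia the CD163KO value is that of 1 female pair, whose MONO library carries 799 Y-linked counts against its label. The male WT pair sets a library of one class against a library of the other, and in microglia it carries most of the mean, since the female WT differences were -0.09 for Gapdh and -0.15 for Ldha. Groups held 2 libraries, too few to look for a sample far from the others.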

How the results depend on the processing

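In the 8 comparisons of treatment, genotype, sex and their interaction, 0 of the 10 genes was called in any of 144 alternative fits. Over all genes, calls in these comparisons were 0, 1 or 5 in the fits reported, 2 to 29 with DESeq2, and up to 88 in microglia of females only for genotype, 105 without a filter on counts and 432 without female WT MONO microglia for the interaction in microglia, and 3377 without female WT PFF macrophages for the interaction in macrophages. The cause was not tested.

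Between populations 6 of the 10 genes were called. Leaving out 1 combination gave 1 to 2 higher calls, the second being Hif1a without male WT PFF. With limma on log2(FPKM + 1), (FPKM + 0.1) or (FPKM + 5), or with no filter on FPKM, calls were 4 higher and 0 lower, Aldoa turned to 0.23, 0.23, 0.22 and 0.23 and Ldha to 0.0494, 0.0495, 0.0491 and 0.0494. Of the median levels, those of Aldoa (-0.87), Pgk1 (-1.25), Pkm (-0.89) and Ldha (-1.19) turned to lower in microglia, as log2 ratios, with TMM-scaled counts in place of FPKM. Without a filter on counts 3 genes were called lower, Ldha and Aldoa no longer. With upper-quartile factors 4 were called lower. Among alternatives chosen after seeing the data, class as a term gave 2 higher and 3 lower and Hif1a at -0.71, the high class alone 2 calls, 2 higher and 0 lower, and the low class alone 2 higher and 3 lower and Hif1a at -1.15. All genes called numbered 2311, 4262 with DESeq2, 6402 with limma at a pseudocount of 0.1 and 4043 without the male WT PFF pair. With limma the sex difference of Hk2 in microglia turned to -0.0596, -0.0633, -0.0461 and -0.0596, and the interaction for Pgk1 in microglia to 0.50, 0.52, 0.42 and 0.50, where all 10 genes were above 0 on log2(FPKM + 1) against 3 in the fit reported. Medians of FPKM over 8 libraries, or of Eno1 with Eno1b, moved by less than the spread between libraries in all 22 cases. Populations were paired by sex, genotype and treatment in the fit reported, and without that block 1 gene was called higher and 5 lower. For treatment, genotype and sex the other factors were covariates, and a block for each matched pair was not fitted.

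Fits within a population had 2 or 3 residual degrees of freedom over 7 libraries.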
